A study of Mus musculus with 4 samples.

Results

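The 10 genes described here make and modify long-chain fatty acids. They are Srebf1, the transcription factor gene of the pathway, Acly, Acaca and Fasn, which build saturated fatty acids, the desaturases Scd1, Scd2, Fads1 and Fads2, and the elongases Elovl5 and Elovl6. They were chosen by name, all 10 were found among the 13834 genes of the table, and all 10 passed the filter on low counts. RNA was sequenced from peritoneal macrophages of adult Dnmt1fl/fl and Dnmt1KO mice, 2 libraries per genotype. All mice carried the floxed Dnmt1 gene and received thioglycolate broth, which draws leukocytes into the abdominal cavity. Dnmt1KO mice also expressed Cre recombinase from the LysM promoter, which is active in myeloid cells. The labels do not say whether each library came from 1 mouse or from pooled mice, so p-values measure only the spread between these libraries.

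Fatty acid synthesis starts from citrate in the cytosol. Acly cleaves it to acetyl-CoA, Acaca carboxylates acetyl-CoA to malonyl-CoA, and Fasn joins these units to palmitate. Elongases then lengthen the chain and desaturases add double bonds, the Scd enzymes in saturated chains and Fads1 and Fads2 in polyunsaturated ones. In macrophages SREBP1, the product of Srebf1, and the liver X receptors drive many of these genes, and the mix of fatty acids sets membrane fluidity and the supply of acyl chains for cholesteryl esters.

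Dnmt1 copies methylation at CpG dinucleotides, so the CpGs in the promoters of these genes were counted in RefSeq windows on GRCm38.p6 that run from 250 bases before to 50 bases after a gene's start. Windows were found for 7 of the 10 genes, 9 windows in all, since Srebf1 has 3. The windows of Fasn and Acaca are shown because these neighbouring steps of the pathway kept a near-constant ratio in all 4 libraries. Of the 9 windows, these also held the most and the fewest CpGs. That of Srebf1 is shown because it is the regulator among the 10 genes. Capitals mark each CpG, on the gene's own strand.
Fasn, chr11:120824498-120824797, minus strand: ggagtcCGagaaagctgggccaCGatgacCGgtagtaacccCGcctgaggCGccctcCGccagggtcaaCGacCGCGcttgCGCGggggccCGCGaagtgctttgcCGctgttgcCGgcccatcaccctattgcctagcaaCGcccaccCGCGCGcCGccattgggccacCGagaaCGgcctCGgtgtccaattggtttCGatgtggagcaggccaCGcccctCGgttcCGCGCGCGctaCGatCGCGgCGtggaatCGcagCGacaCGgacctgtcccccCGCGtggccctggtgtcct
Acaca, chr11:84195188-84195487, plus strand: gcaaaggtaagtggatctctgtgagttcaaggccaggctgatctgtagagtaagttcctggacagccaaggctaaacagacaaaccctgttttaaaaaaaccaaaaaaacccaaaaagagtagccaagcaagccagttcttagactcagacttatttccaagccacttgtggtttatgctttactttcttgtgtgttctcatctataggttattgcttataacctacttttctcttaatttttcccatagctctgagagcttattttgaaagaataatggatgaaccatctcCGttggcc
Srebf1, chr11:60222532-60222831, minus strand: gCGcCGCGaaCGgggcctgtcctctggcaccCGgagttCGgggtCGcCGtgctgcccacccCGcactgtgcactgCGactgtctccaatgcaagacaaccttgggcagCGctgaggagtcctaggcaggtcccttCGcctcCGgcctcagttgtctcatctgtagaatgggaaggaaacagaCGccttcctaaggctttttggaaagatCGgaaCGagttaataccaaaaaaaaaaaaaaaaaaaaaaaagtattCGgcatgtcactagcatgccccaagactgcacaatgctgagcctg
The Fasn window held 39 CpGs, and 95.6% of the 32851 mouse windows in the RefSeq table held fewer. The Acaca window held 1 CpG, and 5.43% of windows held fewer. It lies inside the Acaca gene as GENCODE M21 annotates it on GRCm38 (chromosome 11, 84129672 to 84401651), downstream of the annotated gene start. CpGs at that annotated start were not counted. The Srebf1 window shown held 17 CpGs, and its other windows held 14 and 36. Acly had 18, Elovl5 20, Elovl6 14 and Fads2 23 CpGs, and the median over all windows was 7. A match to CCAAT, on either strand, was found in 5 of the 9 windows (Acly, Elovl5, Fasn and Srebf1) and in 37.4% of all windows, and GGGCGG was found in 4 of 9 (Acly, Fads2 and Srebf1) and in 35.7%. CACGTG was found in 1 window, that of Elovl5, and in 7.15% of all windows. The consensus sterol regulatory element was found in 0 of 9 and in 0.0913% of all windows. Methylation itself was not measured in these libraries.

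The libraries held 20228071 to 24198943 estimated counts, and levels are given as CPM, each gene's share of its library's counts on a fixed common total, after scaling between libraries with edgeR's TMM factors. Dnmt1 was at 86.6 and 67.0 CPM in Dnmt1fl/fl and at 37.0 and 42.7 CPM in Dnmt1KO macrophages. Both Dnmt1KO libraries were lower, with a difference of -0.95 on the log2 scale (SE 0.24) and an adjusted p of 1.00 in edgeR. One library stood apart. Dnmt1KO replicate 1 was the highest or lowest of the 4 in 78.4% of the 12542 genes tested, against 52.4% for Dnmt1KO replicate 2 and 37.7% and 31.5% for Dnmt1fl/fl replicates 1 and 2. Macrophage markers (Adgre1, Csf1r, Cd68, Itgam, Mertk, Fcgr1 and Cd14) were all present, and their summed level ran from 5741 to 6555 CPM. Of the 5 markers of large peritoneal macrophages (Gata6, Timd4, Icam2, Selp and Fn1), whose median log2 fold change was -0.66, Timd4 and Icam2 were lower in both Dnmt1KO libraries, as were 8.56% of all genes. Timd4 was at 91.4 and 140 CPM in Dnmt1fl/fl and 67.6 and 78.8 CPM in Dnmt1KO, and Icam2 at 41.4 and 72.2 CPM against 28.4 and 40.5 CPM, and neither passed edgeR's adjusted threshold. B cell markers summed to 295 and 448 CPM in Dnmt1fl/fl, 126 CPM in Dnmt1KO replicate 1 and 479.5 CPM in Dnmt1KO replicate 2, with 5 of 5 lowest in Dnmt1KO replicate 1. The 5 neutrophil markers tested summed to 56.4 and 181 CPM in Dnmt1fl/fl, 706 CPM in Dnmt1KO replicate 1 and 58.0 CPM in Dnmt1KO replicate 2, and all 5 were highest in Dnmt1KO replicate 1. Of the adipocyte markers Fabp4, which macrophages also make, was at 346 and 176 CPM in Dnmt1fl/fl and at 326 and 258 CPM in Dnmt1KO, and Adipoq, Plin1, Lep, Cidec and Cfd are not analysed here. The part of these cells in the results that follow was not tested. In bulk RNA, a change in the share of a cell type and a change in RNA per cell cannot be told apart.

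Per kilobase of the longest annotated transcript, Acly and Elovl5 were the most abundant of the 10 genes. Acly stood at 60.6 ± 10.4 CPM per kilobase (SD, n = 2) in Dnmt1fl/fl and 51.1 ± 6.36 in Dnmt1KO macrophages, and Elovl5 at 48.9 ± 6.34 and 49.1 ± 5.43. The ranges of these 2 genes over the libraries overlapped, so their order is not set, while both lay above Srebf1 in every library. Srebf1 followed with 12.5 ± 0.0234 CPM per kilobase in Dnmt1fl/fl and 14.5 ± 2.54 in Dnmt1KO. Scd2 was at 7.98 ± 2.22 and 10.4 ± 5.16, Scd1 at 5.97 ± 1.41 and 4.95 ± 4.61, Fads1 at 5.71 ± 2.47 and 5.33 ± 1.17, and Acaca at 3.81 ± 0.842 and 3.05 ± 1.31 CPM per kilobase. Neighbours in the order from Srebf1 down to Acaca overlapped. Fasn was lower than Acaca in every library, at 1.02 ± 0.206 and 0.861 ± 0.380 CPM per kilobase. Elovl6, at 0.441 ± 0.140 and 0.299 ± 0.171, and Fads2, at 0.207 ± 0.0299 and 0.288 ± 0.273 CPM per kilobase, were the lowest and overlapped each other.

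The genotype comparison asks how loss of Dnmt1 altered gene expression in these macrophages. None of the 10 genes passed an adjusted p of 0.05 by the quasi-likelihood method of edgeR, and the unadjusted p was under 0.05 for 0 of them. DESeq2 and limma-voom also gave 0 and 0. Over all 12542 genes tested, 0 passed the adjusted threshold (0%) in edgeR and 35 (0.279%) had an unadjusted p under 0.05. On the log2 scale 8 of the 10 genes differed by 0.2 or more in either direction, against 41.5% of all genes (5206 of 12542). The limit is the one the study chose, but the study reported fewer genes at it. The counts given here are therefore not those of the study. Of these 8, Srebf1, Scd2 and Fads2 were higher in Dnmt1KO (background 21.8%) and Acly, Acaca, Fasn, Scd1 and Elovl6 were lower (background 19.7%). The count of 8 was 4 without Dnmt1KO replicate 1 (42.1% of all genes), 8 without Dnmt1KO replicate 2 (72.4%), 5 without Dnmt1fl/fl replicate 1 (45.2%) and 7 without Dnmt1fl/fl replicate 2 (55%). With library totals alone in place of TMM, 66.4% of the genes past 0.2 were lower in Dnmt1KO, against 47.6% with TMM. Genotypes did not overlap for 1 of the 10 genes, Srebf1, against 16.7% of all genes. Srebf1 was higher in Dnmt1KO (background 8.14%), and 0 of the 10 genes were lower without overlap (background 8.56%). With 3 libraries, where overlap is less likely, the genotypes did not overlap for 3 of the 10 genes without Dnmt1KO replicate 1 (64.6% of all genes), 8 without Dnmt1KO replicate 2 (82.8%), 4 without Dnmt1fl/fl replicate 1 (40.1%) and 7 without Dnmt1fl/fl replicate 2 (46.4%). The median log2 fold change of the 10 genes was -0.17, beside 0.0046 over all genes tested. It was -0.05 and -0.03 without Dnmt1fl/fl replicates 1 and 2, and -0.09 and -0.13 without Dnmt1KO replicates 1 and 2.

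**Figure D1:**
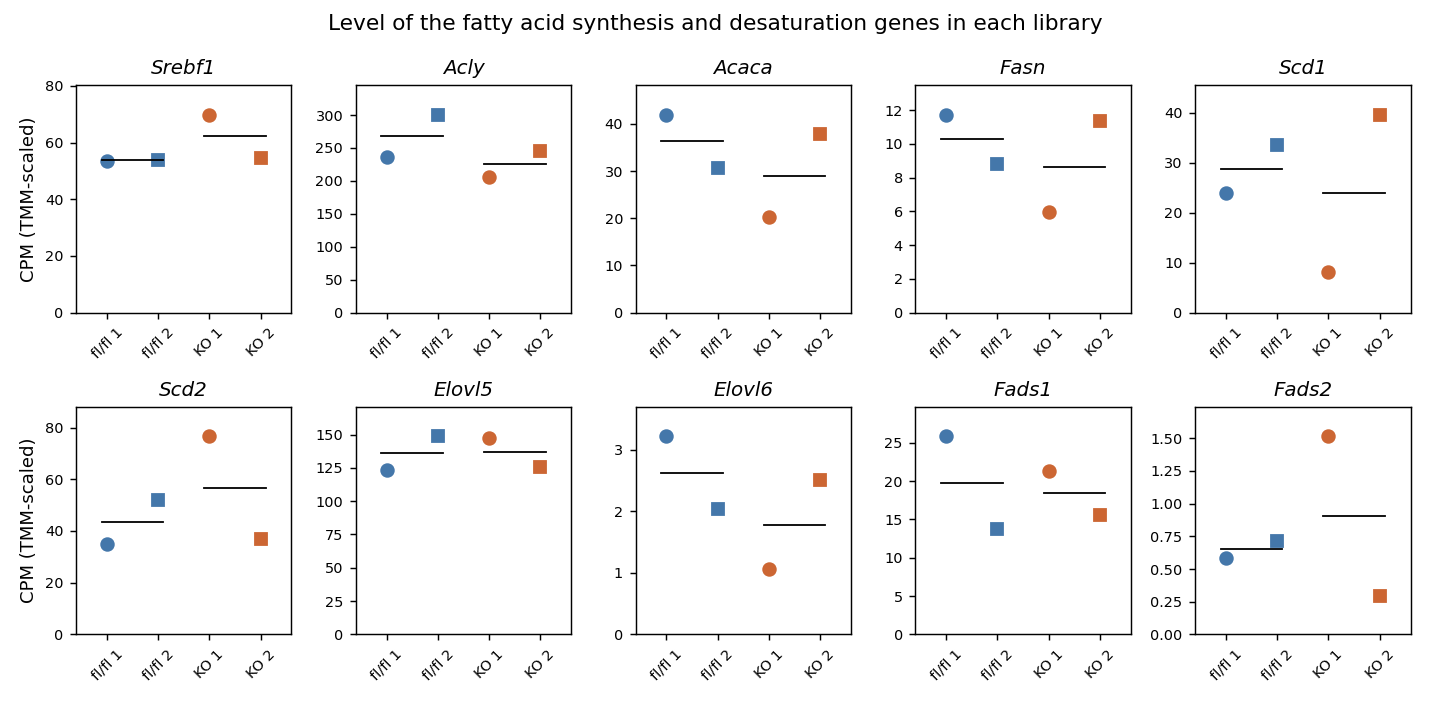
Level of each of the 10 genes in each library, in TMM-scaled CPM on an axis that starts at 0; blue points are Dnmt1fl/fl and orange points Dnmt1KO libraries, and black lines are the means of 2 libraries. In Scd1, Dnmt1KO replicate 1 lies at 8.13 and Dnmt1KO replicate 2 at 39.7 CPM, on either side of the Dnmt1fl/fl libraries at 24.0 and 33.6.

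Srebf1 encodes SREBP1, the membrane-bound transcription factor that is cleaved to activate lipogenic genes. It was at 53.6 and 53.8 CPM in the Dnmt1fl/fl libraries, 69.9 CPM in Dnmt1KO replicate 1 and 54.4 CPM in Dnmt1KO replicate 2. Both Dnmt1KO libraries were above both Dnmt1fl/fl libraries, but replicate 2 by less than 1 CPM. Srebf1 differed by 0.21 on the log2 scale (standard error 0.23, 95% interval -0.35 to 0.77, adjusted p = 1.00 from edgeR), and it was 0.02 without Dnmt1KO replicate 1. With each library's trend against transcript length removed, Srebf1 was at 51.9, 53.8, 74.5 and 52.8 CPM in the same order, and the genotypes overlapped. Srebf1 shares 109 exon bases, or 1.93% of its exon sequence, with Rai1 on the opposite strand, and whether reads were counted by strand is not given in the sources used here.

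Acly, ATP citrate lyase, supplies the acetyl-CoA. It was at 236 and 301 CPM in Dnmt1fl/fl and at 206 and 246 CPM in Dnmt1KO macrophages. Dnmt1KO replicate 2 lay between the Dnmt1fl/fl libraries, so the genotypes overlapped. Acly differed by -0.25 on the log2 scale (standard error 0.25, 95% interval -0.86 to 0.37, adjusted p = 1.00 from edgeR). Acly and Elovl6 stayed lower in Dnmt1KO in each of the 11 other fits on 4 libraries and the 4 fits with a library left out, from -0.41 to -0.06 for Acly.

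Acaca, acetyl-CoA carboxylase, makes the malonyl-CoA that Fasn condenses. It was at 41.9 and 30.6 CPM in Dnmt1fl/fl, 20.2 CPM in Dnmt1KO replicate 1 and 37.8 CPM in Dnmt1KO replicate 2. Fasn, fatty acid synthase, was at 11.7 and 8.81 CPM in Dnmt1fl/fl, and at 5.96 and 11.4 CPM in Dnmt1KO replicates 1 and 2. In both genes Dnmt1KO replicate 1 was the lowest library and Dnmt1KO replicate 2 lay inside the Dnmt1fl/fl range. The log2 fold change was -0.32 (standard error 0.36, 95% interval -1.21 to 0.56) for Acaca and -0.24 (standard error 0.40, 95% interval -1.24 to 0.75) for Fasn, and the adjusted p from edgeR was 1.00 in both. Without Dnmt1KO replicate 1 both turned, to 0.06 for Acaca and 0.14 for Fasn.

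The 2 genes had the same order of levels over the libraries. The ratio of Fasn to Acaca counts within a library, which does not depend on scaling between libraries, was 0.280 and 0.288 in Dnmt1fl/fl and 0.295 and 0.301 in Dnmt1KO macrophages. Its highest and lowest values differed 1.07-fold, while Acaca ranged 2.08-fold and Fasn 1.97-fold over the libraries. Both Dnmt1KO ratios were above both Dnmt1fl/fl ratios, by 0.07 on the log2 scale on average (exact two-sided permutation test, p = 0.33, the smallest value that 2 against 2 libraries allow). Adjusted over the 4 ratios compared, this p was 1.00. Of the 100-base stretches of the Acaca transcript, 42.8% also occur in Gm5182, and how reads that match both were counted is not given in the sources used here. Fasn shares 0% of its stretches with another gene.

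Acaca and Fasn have the longest transcripts of the 10 genes, 9513 and 10050 bases, and the libraries differed in how much they held of long transcripts. Over all genes, the trend at the length of Fasn was 0.22 above the mean of the libraries on the log2 scale in Dnmt1fl/fl replicate 1, -0.07 in Dnmt1fl/fl replicate 2, -0.39 in Dnmt1KO replicate 1 and 0.24 in Dnmt1KO replicate 2. With this trend removed, Fasn was at 10.1 and 9.24 CPM in Dnmt1fl/fl and 7.79 and 9.62 CPM in Dnmt1KO, a 1.30-fold range. Acaca was then at 36.4, 32.0, 26.1 and 32.3 CPM, a 1.39-fold range. Dnmt1KO replicate 1 was still the lowest library in both genes, and the log2 fold changes were -0.15 for Fasn and -0.23 for Acaca.

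**Figure D2:**
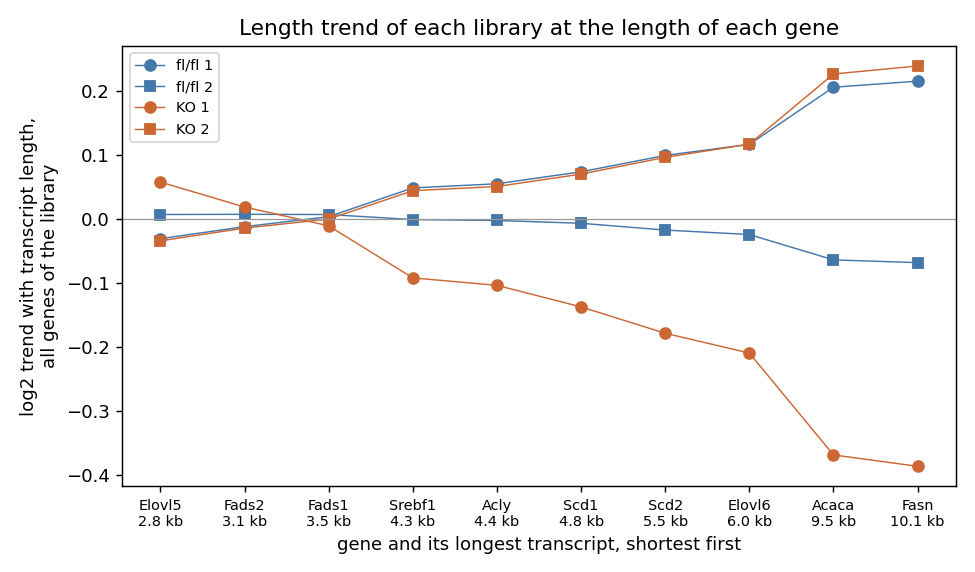
Trend of all genes in a library with the length of the longest transcript, read off at the length of each of the 10 genes, on the log2 scale relative to the mean of the libraries; genes are ordered from the shortest to the longest transcript. The libraries lie close together for the shortest transcripts and fan out to 0.24 in Dnmt1KO replicate 2 and -0.39 in Dnmt1KO replicate 1 at Fasn (10050 bases).

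Scd1 and Scd2 are stearoyl-CoA desaturases, which put the first double bond into saturated chains. Their genes lie close together on chromosome 19 (GRCm38), Scd2 at 44293674 to 44306864 and Scd1 at 44394455 to 44407879. Scd1 was at 24.0 and 33.6 CPM in Dnmt1fl/fl, 8.13 CPM in Dnmt1KO replicate 1 and 39.7 CPM in Dnmt1KO replicate 2. The Dnmt1KO libraries lay below and above both Dnmt1fl/fl libraries and differed from each other 4.88-fold. A smaller difference between the Dnmt1KO replicates was found in 97.7% of all genes tested. The log2 fold change of Scd1 was -0.27 (standard error 0.69, 95% interval -1.99 to 1.45, adjusted p = 1.00 from edgeR). It was -0.63 with limma-voom and -0.65 with the replicate number as a block. Without Dnmt1KO replicate 1 it was 0.46 (adjusted p = 1.00 from edgeR), and without Dnmt1KO replicate 2 it was -1.83 (adjusted p = 0.00569 from edgeR). That last fit compares 1 library with 2 and called 1049 genes, 8.22% of those it tested. In it the unadjusted p was under 0.05 for 5 of the 10 genes (Acaca, Fasn, Scd1, Scd2 and Elovl6), against 27.6% of all genes. Leaving out Dnmt1fl/fl replicate 1 called 0.0155% of genes, Dnmt1fl/fl replicate 2 0.0781% and Dnmt1KO replicate 1 0%, with none of the 10 genes among them.

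Scd2 was at 35.0 and 52.1 CPM in Dnmt1fl/fl, 76.6 CPM in Dnmt1KO replicate 1 and 36.8 CPM in Dnmt1KO replicate 2. Dnmt1KO replicate 1 was the highest library, and replicate 2 lay within the Dnmt1fl/fl range. Scd2 differed by 0.38 on the log2 scale (standard error 0.41, 95% interval -0.63 to 1.39, adjusted p = 1.00 from edgeR), and it turned to -0.25 without Dnmt1KO replicate 1. The ratio of Scd2 to Scd1 counts was 1.46 and 1.55 in Dnmt1fl/fl, 9.42 in Dnmt1KO replicate 1 and 0.928 in Dnmt1KO replicate 2. The Dnmt1fl/fl libraries thus nearly coincided and the Dnmt1KO libraries lay on either side of them, a 10.1-fold range (exact two-sided permutation test of the genotypes, p = 1.00). Of the 100-base stretches of the transcripts, 2.66% of those of Scd1 and 0.896% of those of Scd2 occur in another gene.

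Levels of Scd1 and Scd2 ran in the same order over the libraries as the summed markers of another cell type, a pattern chosen after the values were seen. For Scd1 these were the dendritic cell markers (Flt3, Zbtb46, Xcr1, Clec9a and Ccr7), which summed to 21.9 and 23.8 CPM in Dnmt1fl/fl and 14.5 and 31.9 CPM in Dnmt1KO, and the B cell markers (Cd79a, Cd79b, Ms4a1, Pax5 and Ighm). Scd1 was 8.14% and 7.52% of the summed B cell CPM in Dnmt1fl/fl and 6.47% and 8.27% in Dnmt1KO. This share ranged 1.28-fold while Scd1 itself ranged 4.88-fold. Ighm made up most of the B cell sum, at 196 and 286 CPM in Dnmt1fl/fl and 89.6 and 309 CPM in Dnmt1KO. Single B cell markers ranged from 3.18-fold for Cd79b to 12.9-fold for Pax5 over the libraries. The share of the B cell sum ranged 2.40-fold for Elovl6, 2.41-fold for Fasn and 2.35-fold for Acaca. No share of the dendritic cell sum was computed for Scd1. For Scd2 the markers in the same order were those of neutrophils. Of these S100a8, S100a9, Cxcr2, Retnlg and Mmp9 were tested, Ly6g was listed below the filter and Camp and Ngp are not analysed here. Scd2 was 62.0% and 28.8% of the summed neutrophil CPM in Dnmt1fl/fl and 10.9% and 63.5% in Dnmt1KO, a 5.85-fold range. Such a shared order was not particular to Scd1 and Scd2. Elovl5 had the order of the summed monocyte and T cell markers, Fads1 that of the eosinophil markers and of Fabp4, and Fads2 that of the macrophage and mesothelium markers, while Srebf1, Acly, Acaca, Fasn and Elovl6 shared the order of no marker list. The share of all genes with the order of some marker list was not computed, so these matches have no background to be set against. The part of these cells in the levels of Scd1 and Scd2 was not tested.

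**Figure D3:**
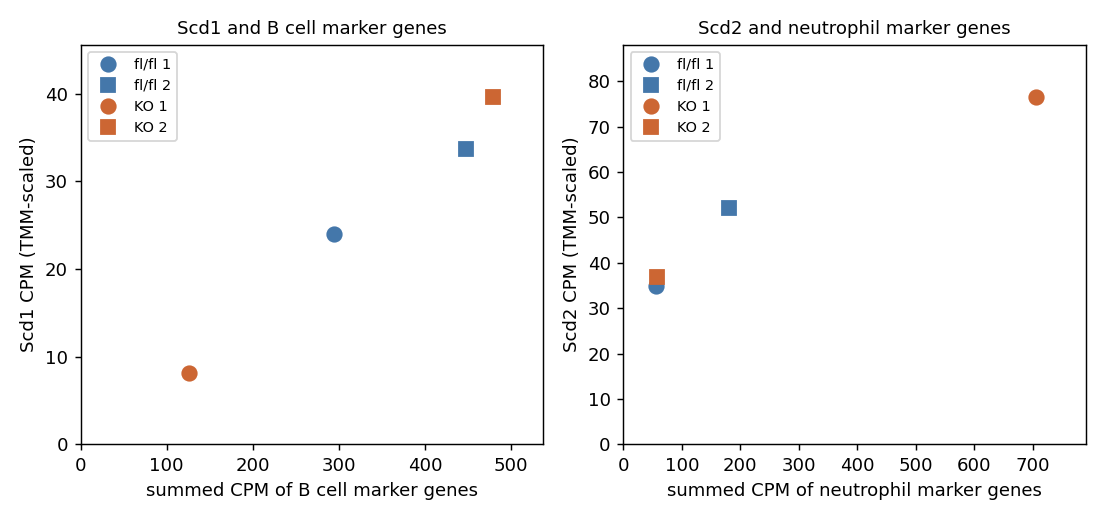
Level of Scd1 against the summed level of 5 B cell marker genes (left) and of Scd2 against that of 5 neutrophil marker genes (right), in TMM-scaled CPM, 1 point per library. Dnmt1KO replicate 1 is at the low end for Scd1 (8.13 against 126 CPM of B cell markers) and at the high end for Scd2 (76.6 against 706 CPM of neutrophil markers).

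Elovl5 lengthens polyunsaturated chains and Elovl6 lengthens palmitate to stearate. Elovl5 was at 124 and 149 CPM in Dnmt1fl/fl and at 147 and 126 CPM in Dnmt1KO macrophages. Each Dnmt1KO library lay inside the Dnmt1fl/fl range. Its log2 fold change was 0.0045 (standard error 0.23, 95% interval -0.57 to 0.58, adjusted p = 1.00 from edgeR), and its sign changed with scaling, to -0.07 with library totals alone. Elovl6 was at 3.22 and 2.03 CPM in Dnmt1fl/fl and at 1.06 and 2.5 CPM in Dnmt1KO. Dnmt1KO replicate 1 was the lowest library and replicate 2 lay within the Dnmt1fl/fl range, the order also seen for Acaca and Fasn. The log2 fold change of Elovl6 was -0.55 (standard error 0.57, 95% interval -1.96 to 0.86, adjusted p = 1.00 from edgeR), and -0.50 with length corrected. It was -0.07 and -1.30 without Dnmt1KO replicates 1 and 2, and -0.19 and -0.84 without Dnmt1fl/fl replicates 1 and 2. Elovl6 rested on 21 counts in Dnmt1KO replicate 1 (95% exact Poisson interval 13 to 32.1, counting error only). The ratio of Elovl6 to Elovl5 counts was 0.0260 and 0.0137 in Dnmt1fl/fl and 0.0072 and 0.0199 in Dnmt1KO (exact two-sided permutation test, p = 0.667), and the genotypes overlapped.

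Fads1 and Fads2 are the delta-5 and delta-6 desaturases of polyunsaturated chains, neighbours on chromosome 19 of GRCm38 at 10182888 to 10196877 and 10062765 to 10101746. Fads1 was at 25.8 and 13.7 CPM in Dnmt1fl/fl and at 21.3 and 15.6 CPM in Dnmt1KO. Here the Dnmt1fl/fl libraries lay furthest apart, with both Dnmt1KO libraries between them, and 94.2% of all genes differed less between the Dnmt1fl/fl replicates. The log2 fold change of Fads1 was -0.10 (standard error 0.37, 95% interval -1.02 to 0.82, adjusted p = 1.00 from edgeR). It was 0.43 without Dnmt1fl/fl replicate 1 and -0.48 without Dnmt1fl/fl replicate 2.

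Fads2 was near the limit of detection, with 12 and 18 counts in Dnmt1fl/fl and 30 and 7 counts in Dnmt1KO. These correspond to 0.585 and 0.718 CPM in Dnmt1fl/fl and 1.51 and 0.297 CPM in Dnmt1KO, while the floor of 3 counts lay at 0.124 to 0.148 CPM. The exact Poisson 95% intervals of the Dnmt1KO counts, 20.2 to 42.8 and 2.81 to 14.4, cover counting error only and did not overlap. The Dnmt1KO libraries again lay on either side of the Dnmt1fl/fl libraries. Fads2 differed by 0.45 on the log2 scale (standard error 0.85, 95% interval -1.67 to 2.57, adjusted p = 1.00 from edgeR), -0.0055 with limma-voom and -1.13 without Dnmt1KO replicate 1. The ratio of Fads1 to Fads2 counts was 44.2 and 19.1 in Dnmt1fl/fl and 14.1 and 52.6 in Dnmt1KO (exact two-sided permutation test, p = 1.00), and the genotypes overlapped.

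**Figure D4:**
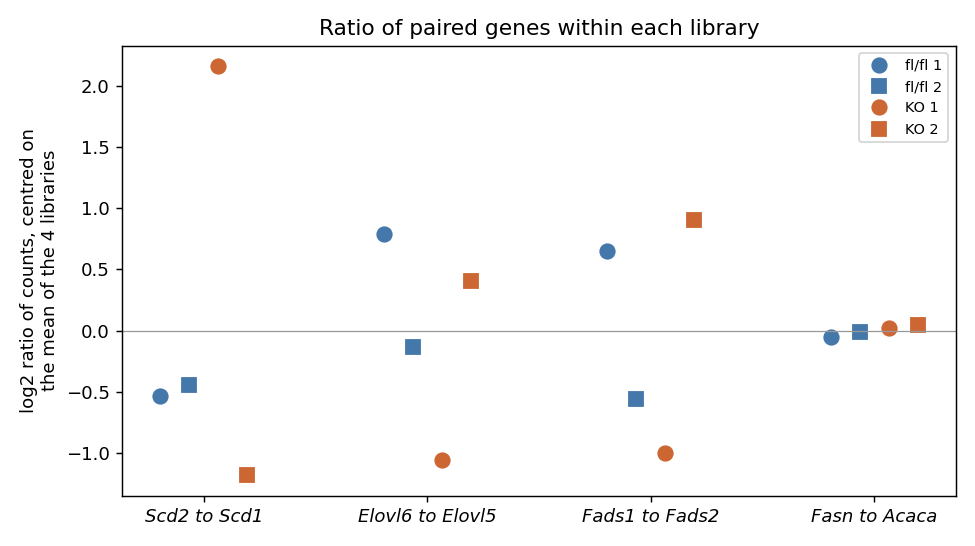
Ratio of the counts of paired genes within each library, on the log2 scale and centred on the mean of the 4 libraries; blue is Dnmt1fl/fl, orange Dnmt1KO, circles are replicate 1 and squares replicate 2. Fasn to Acaca hardly varies (1.07-fold), whereas Scd2 to Scd1 spans 10.1-fold between the Dnmt1KO libraries with the Dnmt1fl/fl libraries between them.

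The median absolute log2 difference between the Dnmt1KO replicates was 0.92 over the 10 genes and 0.48 over all genes tested, and between the Dnmt1fl/fl replicates it was 0.43 and 0.21. The Dnmt1KO replicates differed more than the Dnmt1fl/fl replicates in 7 of the 10 genes and in 75.0% of all genes. Likewise, Dnmt1KO replicate 1 was the highest or lowest library for 8 of the 10 genes, against 78.4% of all genes. It was lowest for Acly, Acaca, Fasn, Scd1 and Elovl6 and highest for Srebf1, Scd2 and Fads2.

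**Figure D5:**
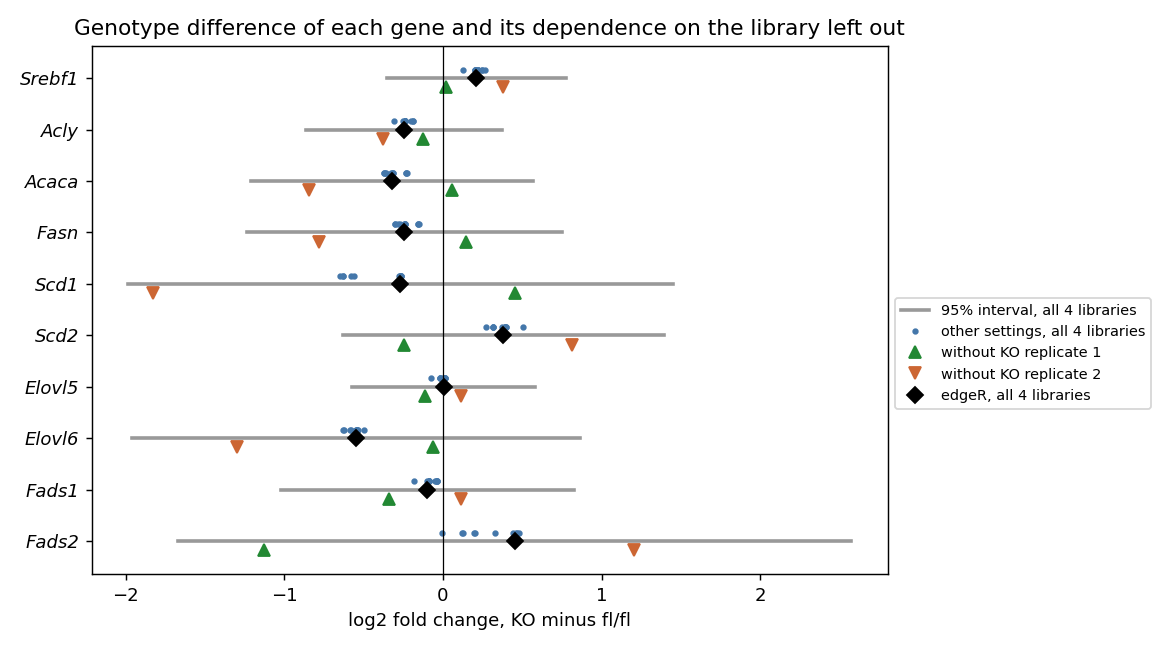
Log2 fold change of each gene (Dnmt1KO minus Dnmt1fl/fl): diamonds and grey bars are edgeR's estimate and 95% interval on 4 libraries, small blue points are the other settings on 4 libraries, and triangles leave out one Dnmt1KO library. Every interval includes 0, and for Scd1 the value is 0.46 without Dnmt1KO replicate 1 and -1.83 without Dnmt1KO replicate 2.

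Genes of substrate supply and other genes of synthesis were described as a list of 15, of which 14 were tested. The supply genes provide citrate, NADPH and activated fatty acids, and the others include Acacb, Acss2, Mcat, Oxsm and Mid1ip1. None passed edgeR's adjusted threshold, and 0 had an unadjusted p under 0.05. Past 0.2 on the log2 scale lay 4 genes (41.5% of all genes), all higher in Dnmt1KO (21.8% of all genes), and the median was 0.15. Genotypes did not overlap for 5 of the 14, 4 higher and 1 lower in Dnmt1KO, against 16.7%, 8.14% and 8.56% of all genes. By log2 fold change the highest of these was Me1, the NADPH-forming malic enzyme, at 0.438 and 0.678 CPM in Dnmt1fl/fl and 0.707 and 0.763 CPM in Dnmt1KO, on 9 to 18 counts a library (log2 fold change 0.39, standard error 0.59, adjusted p = 1.00 from edgeR). Next was Slc25a1, the mitochondrial citrate carrier, named after its values were seen, at 39.9 and 37.2 CPM in Dnmt1fl/fl and 60.5 and 40.0 CPM in Dnmt1KO (log2 fold change 0.38, standard error 0.27, adjusted p = 1.00 from edgeR). The lowest was Acsl3, which activates fatty acids with coenzyme A, at 6.77 and 6.50 CPM in Dnmt1fl/fl and 5.71 and 6.19 CPM in Dnmt1KO (log2 fold change -0.16, adjusted p = 1.00 from edgeR). The median of the list was -0.02 without Dnmt1KO replicate 1 and 0.08 with library totals alone.

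Of 20 other genes of elongation and desaturation, 14 were tested, among them the remaining enzymes of the elongation cycle (Hsd17b12, Hacd1 to Hacd4 and Tecr) and the cytochrome b5 electron donors of the desaturases. None passed edgeR's adjusted threshold, 0 had an unadjusted p under 0.05 and 0 had genotypes that did not overlap. Log2 fold changes ran from -0.12 to 0.42 with a median of 0.07, and 2 genes, Elovl1 and Cyb5r3, were at 0.2 or more, against 21.8% of all genes. The median was -0.09 without Dnmt1KO replicate 1 and -0.01 with library totals alone. Elovl1, which makes very-long-chain fatty acids, was at 78.0 and 82.4 CPM in Dnmt1fl/fl and at 117 and 70.4 CPM in Dnmt1KO. Cyb5r3, a reductase of cytochrome b5, was at 89.7 and 80.5 CPM in Dnmt1fl/fl and at 150 and 78.7 CPM in Dnmt1KO. In both, Dnmt1KO replicate 1 was the highest library and replicate 2 the lowest. These 2 genes were chosen after their values were seen.

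All 20 genes of a list on the control of lipogenesis were tested. It holds genes of sterol and carbohydrate sensing and other regulators, such as Mbtps1, Prkaa1, Trib3 and Lpin1. None passed edgeR's adjusted threshold, 0 had an unadjusted p under 0.05, and the median log2 fold change was 0.02. This median was -0.11 without Dnmt1KO replicate 2 and -0.05 with library totals alone. Past 0.2 lay 1 gene higher and 4 lower in Dnmt1KO, against 21.8% and 19.7% of all genes. Genotypes did not overlap for 3 of the 20, 1 higher and 2 lower in Dnmt1KO, near the 16.7%, 8.14% and 8.56% of all genes. Mlxipl encodes ChREBP, the glucose-responsive activator of lipogenic genes. It was at 24.8 and 51.0 CPM in Dnmt1fl/fl, 7.67 CPM in Dnmt1KO replicate 1 and 24.0 CPM in Dnmt1KO replicate 2. Both Dnmt1KO libraries were thus below both Dnmt1fl/fl libraries, replicate 2 narrowly. Its log2 fold change was -1.26 (standard error 0.61, 95% interval -2.76 to 0.25, unadjusted p = 0.0869 and adjusted p = 1.00 from edgeR). Srebf2, the paralogue that drives cholesterol synthesis, was at 119 and 104 CPM in Dnmt1fl/fl and 96.1 and 97.4 CPM in Dnmt1KO (log2 fold change -0.21, standard error 0.21, adjusted p = 1.00 from edgeR). Rxra, the partner of the liver X receptors, was at 132 and 126 CPM in Dnmt1fl/fl and 132 and 135 CPM in Dnmt1KO (log2 fold change 0.05, adjusted p = 1.00 from edgeR). Among genes outside the list with at least 10 CPM, 8450 in number, the profile over the 4 libraries nearest to the mean of the 10 genes was that of Fbxo11, Llgl1 and Larp4. Their root mean square distances were 0.0067, 0.0088 and 0.0093 on the log2 scale. Small distances were built in, because these genes were picked as the nearest of 8450. The mean profile averaged genes that ran in opposite directions, with Dnmt1KO replicate 1 lowest in 5 and highest in 3, so it need not describe any of them.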

How the data were processed

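RNA of peritoneal macrophages from 2 Dnmt1fl/fl and 2 Dnmt1KO libraries was analysed. The authors aligned paired-end reads with HISAT2 2.0.5 and counted them per gene with featureCounts 1.5.0-p3, and the submitters' processing notes name build mm10. The table the authors deposited holds estimated counts without normalization, and 72.6% to 76.4% of them were whole numbers (within 1e-09) in a library. A shorter deposited table of 2749 rows repeats rows of the whole table and was not used. It holds 5 of the 10 genes described here.

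Counts were rounded, filtered with filterByExpr, scaled with TMM and compared with edgeR 4.0.16 (R 4.3.3) by its two-sided quasi-likelihood test, and p-values were adjusted over 12542 genes by the Benjamini-Hochberg method. Standard errors came from the F statistic and 95% intervals from its degrees of freedom. Totals were 20228071 to 24198943 counts, and the floor of 3 counts covers counting error only. The coefficient of variation between replicates was 28.9%. Lengths and positions are those of GENCODE M21. Some of the fits were run on simulated counts, where the only requirement was that the median estimate lay near the true change. The simulated libraries held no length trend and no library that stood apart. The share of true changes found there is not reported here.

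The members and lists were chosen with earlier results of these data known. A B cell marker gene was left out of its list and is not reported here. Not every marker list is given. All 10 genes are named, with Dnmt1. From each other pathway list the highest and lowest gene without overlap and any with an unadjusted p under 0.05 are named, and 3 genes of nearest profile. Srebf2, Slc25a1, Elovl1 and Cyb5r3 are named outside this rule. Other fits used limma-voom (limma 3.58.1), DESeq2 1.42.0, other scaling and filters, a replicate block, removal of a loess trend (span 0.5) on transcript length, and leaving out each library. Permutation tests used SciPy 1.17.1.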

Additional observations from a re-analysis of the deposited data

How the results depend on the processing

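Of the 10 genes, 0 passed an adjusted p of 0.05 in any of the 12 fits on all 4 libraries. Across all genes, 0 passed in edgeR without a block, 0 with the replicate block, 1 with DESeq2 and 2 with the crossed pairing, which was added after the data were seen because same-numbered libraries deviated in opposite directions (correlation -0.36 across genes). With one library left out, 0 to 1049 genes passed and 0 to 1 of the 10 genes, the 1 being Scd1 without Dnmt1KO replicate 2, where 5 had an unadjusted p under 0.05. Past 0.2 on the log2 scale lay 8 of the 10 genes. This count was 7 with library totals alone, with length correction, with the crossed pairing and with at least 10 counts in every sample. It was 6 with limma-voom and with the replicate block. With length correction it was 5 under the replicate block and 5 under the crossed pairing. It was 0 at a limit of 1 and 4 to 8 with a library left out. Over all genes there were 5206, 149 at a limit of 1 and 5435 to 9229 with a library left out. Genotypes did not overlap for 1 of the 10 genes, 0 after length correction and 3 to 8 with a library left out, where fewer libraries are compared. Over all genes the share was 16.7% on 4 libraries and 40.1% to 82.8% with a library left out. The median log2 fold change of the 10 genes, -0.17, was -0.23 with library totals alone, -0.14 with limma-voom, -0.25 with at least 10 counts in every sample (which drops Fads2), -0.14 with the replicate block, -0.12 with length correction, -0.0967 with block and length correction, -0.14 with the crossed pairing, -0.0975 with the crossed pairing and length correction, and -0.13 to -0.0312 with a library left out. For the list of supply and other synthesis genes the median ran from -0.0209 to 0.24 with a library left out. For the other elongation and desaturation genes it ran from -0.0850 to 0.19 and for the control genes from -0.11 to 0.0207. Signs turned for Elovl5 (-0.0749 with library totals alone, -0.0204 with length correction, -0.0175 with block and length correction, -0.0174 with crossed pairing and length correction) and for Fads2 (-0.0055 with limma-voom). With a library left out the log2 fold change ran from -0.84 to 0.0565 for Acaca, -0.78 to 0.14 for Fasn, -1.83 to 0.46 for Scd1, -0.25 to 0.81 for Scd2, -0.12 to 0.15 for Elovl5, -0.48 to 0.43 for Fads1 and -1.13 to 1.20 for Fads2, while Srebf1 (0.02 to 0.38), Acly (-0.41 to -0.06) and Elovl6 (-1.30 to -0.07) kept their sign. With a library left out, the log2 difference between genotypes ran from -0.69 to 2.65 for the ratio of Scd2 to Scd1, -1.39 to 0.0741 for Elovl6 to Elovl5, -1.05 to 0.86 for Fads1 to Fads2 and 0.0499 to 0.0898 for Fasn to Acaca. Where a library is left out, the lone library of its genotype is assumed to vary like the others. The replicate block changed no call of the 10 genes at an adjusted p of 0.05, but 6 of them lay past 0.2 with it. Depth limits Fads2 and Elovl6, whose counts are low. The cause of these changes was not tested.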
